A study of Mus musculus with 4 samples.

Results

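The genes described here are 10 mouse kinesins that work in mitosis: Kif11, Kif15, Kif4, Kif22, Kif14, Kif20a, Kif20b, Kif23, Kif2c and Kif18a. They were read on every probe set that the array annotation gives to one of these genes alone, which came to 23 of the 45101 probe sets. All 10 genes were found; 4 had 1 probe set and 6 had several. B cell populations of adult C57BL6/J wild type mice were profiled on 4 Affymetrix arrays, 1 for each population, with RNA pooled from 3 to 5 mice. Germinal centre (GC) cells, sorted as B220+PNA+Fas+, and naive cells, sorted as B220+PNA-Fas-, were taken from the peripheral lymph nodes (pLN) of mice immunised with TNP-KLH in incomplete Freund's adjuvant. The same pair of populations was taken from the Peyer's patches (PP), the lymphoid tissue of the gut wall, of mice that had no treatment. Precision is limited by having so few arrays, and nothing in the design measures the variation between mice.

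Kinesins are motor proteins that use ATP to walk along microtubules or to take their ends apart. During mitosis a set of them builds the spindle, pushes and aligns chromosomes, and then organises the central spindle on which the daughter cells separate. Their transcripts are known to be low in resting cells and, in dividing cells, to rise towards mitosis. That rise works in part through a promoter element of the sequence TTTGAA near the start site (the cell cycle genes homology region). In dividing cells this element is bound by the MuvB complex with B-MYB and FOXM1, and CCAAT boxes, which also take part, are bound by NF-Y. GC B cells divide fast, while naive B cells rest.

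The promoters of the kinesin genes are shown because most of these genes, though not all, read higher in GC cells, as described further on. Whether the motifs go with the array differences was not tested. RefSeq windows of 300 bases (GRCm38.p6; 250 before and 50 after the start) were searched for 9 of the 10 genes on both strands. The first motif was TTTGAA, which reads TTCAAA on the opposite strand, and its variant form TTCGAA was searched as well. The last was CCAAT, which reads ATTGG on the opposite strand. TTTGAA was present in 8 of the 9 windows and in 17.9% of all 32851 promoter windows. TTCGAA was in none of the 9 and in 1.56% of all. In 6 of the 9, a match began within 30 bases of the start, as it did for either of these motifs in 3.40% of all windows. CCAAT was present in 5 of the 9 windows and in 37.4% of all. For Kif2c and Kif14 the start used by the table lies 3852 and 1547 bases inside the outermost start of the gene's record, so their windows may not be the main promoter. These matches describe letters, not binding. The last 120 bases before the start are printed for 4 genes, 5′ to 3′ on the gene's strand, with both motifs in capitals. Kif11, Kif22 and Kif15 had TTCAAA between 19 and 17 bases before the start, and Kif18a, printed for contrast, had no match to the 3 motifs in its window. On the arrays Kif15 gave no usable signal, while Kif18a was called higher in GC cells.
Kif11 (chr19:37376262-37376381, plus strand): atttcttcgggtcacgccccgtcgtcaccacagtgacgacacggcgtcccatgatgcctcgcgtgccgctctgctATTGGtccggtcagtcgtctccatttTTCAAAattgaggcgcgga
Kif22 (chr7:127042421-127042540, minus strand): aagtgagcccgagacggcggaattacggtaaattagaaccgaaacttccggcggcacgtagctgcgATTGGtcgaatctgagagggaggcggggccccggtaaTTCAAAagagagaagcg
Kif15 (chr9:122950961-122951080, plus strand): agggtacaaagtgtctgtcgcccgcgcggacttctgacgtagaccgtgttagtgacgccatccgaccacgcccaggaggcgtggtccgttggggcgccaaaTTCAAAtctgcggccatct
Kif18a (chr2:109280618-109280737, plus strand): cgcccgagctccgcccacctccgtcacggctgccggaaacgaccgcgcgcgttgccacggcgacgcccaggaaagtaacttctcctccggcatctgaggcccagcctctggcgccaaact

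Array signals are given after scaling each array to a trimmed mean of 500. A signal counts as detected above the 90th percentile of 77 probe sets for genes of other tissues on that array, which was 32.0 on GC pLN, 59.8 on GC PP, 74.1 on naive pLN and 127 on naive PP. RNA quality differed between the cell types. Gapdh control probes at the 3' end read 1.48 and 1.67 times those at the 5' end on the GC pLN and GC PP arrays, against 18.7 and 96.4 times on naive pLN and naive PP. At the 5' end Gapdh read 7068 and 6473 on the GC arrays, against 949 and 328 on the naive arrays. At the 3' end it read 10457 and 10781 against 17780 and 31610. The spike-in RNAs of bacterial and phage origin gave medians of 4092 and 3964 on the GC arrays, and of 7500 and 15677 on the naive arrays. These values move with every GC and naive difference below, and their part in it was not tested. The cells carried the labelled identity: Cd79a read 8077 and 6813 in GC cells and 15281 and 25286 in naive cells, and the sort marker Fas read 4266 and 4980 in GC cells against 515 and 403 in naive cells. Of 7 T cell markers, 7 and 6 were detected in GC cells and 6 and 1 in naive cells, with summed signals of 622 and 1183 in GC cells and 1278 and 686 in naive cells. Of 6 myeloid markers, 4 and 3 were detected in GC cells and 3 and 2 in naive cells, with sums from 805 to 883 in GC cells and from 630 to 1430 in naive cells. In bulk RNA, a smaller share of dividing cells and less transcript per cell cannot be told apart.

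GC B cells gave a higher signal than naive B cells for 7 of the 10 mitotic kinesins, by at least 8.07-fold by the brightest probe set of each gene. Kif14 and Kif20b gave weaker or divided results, and Kif15 gave no usable signal. Both GC arrays read above both naive arrays for 22 of the 23 probe sets, as for 30.6% of all 34958 probe sets with 1 gene symbol. Among the 19 that entered the test described next it was all 19, where it was 47% of all tested, but 15 of these entered only because both GC arrays detected them, so nothing is read from that count. The 7 were Kif11, Kif4, Kif22, Kif20a, Kif23, Kif2c and Kif18a, and by its brightest probe set each read at least 617 in both GC samples. In naive cells 16 of the 23 probe sets lay below the detection level on both arrays and 4 were above it on both. On naive pLN 7 of the 23 were above it, as were 16861 of all 34958 probe sets with 1 gene symbol. On naive PP it was 4 of the 23, and 14085 of all. Where either naive signal was undetected, the fold is given as a lower bound, and the fitted log2 difference beside it is one against background. The bound sets the GC signal against the detection level of each naive array where the naive signal was under it. It is a bound on signal and not on transcript amount, since the 3' to 5' ratios differed between the cell types.

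The 2 cell types were compared with limma over all 19270 named probe sets that both arrays of either cell type detected, with tissue as a block. Of the 23 kinesin probe sets 19 entered, and 18 of them passed an adjusted p of 0.05 with GC cells higher, where 31.5% of all tested probe sets were. None was called lower, where 17.2% of all were. Since 15 of the 19 entered through the GC arrays alone, their count is not support in itself. Without the filter, with all 23 in the fit, 19 were called higher and 0 lower. The shares above belong to the filtered fit, and none is given for this one, so nothing is read from that count either. The median log2 difference of the 19 was 3.63, against 0.36 over all probe sets tested. With 2 tissues as the only repeats, the fit has 1 residual degree of freedom and borrows its spread from all probe sets.

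**Figure D1:**
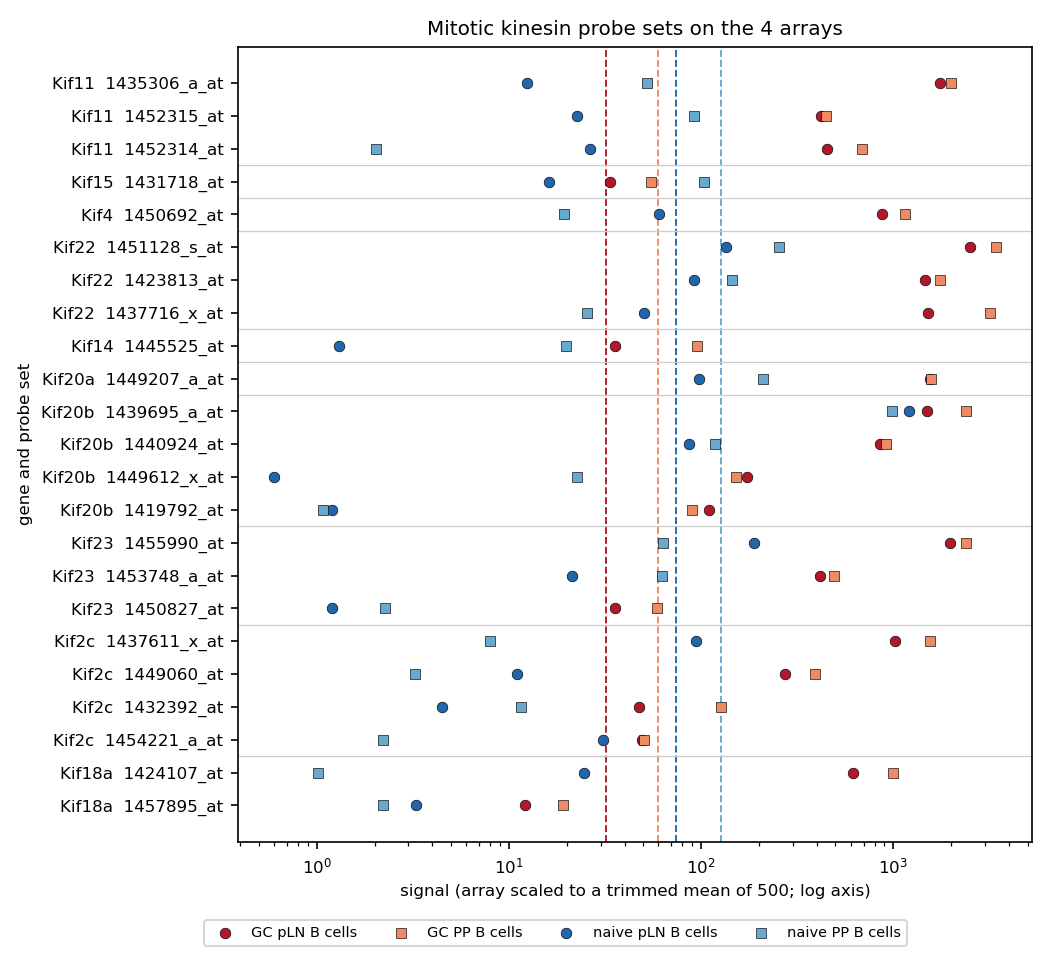
Signal of each of the 23 kinesin probe sets on the 4 arrays (log axis), with GC cells in reds, naive cells in blues, and the detection level of each array as a dashed line in its colour. Both GC points lie right of both naive points in every row but that of Kif15, and 16 rows have both naive points under their levels.

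Kif11 and Kif15 slide or brace the microtubules of the spindle. Kif11, the tetrameric motor that pushes spindle poles apart, read 1745 (pLN) and 2008 (PP) in GC cells by probe set 1435306_a_at, against 12.4 and 52.5 in naive cells. Its other 2 probe sets read 452 and 686 in GC cells, against 26.5 and 2.03 in naive cells (1452314_at), and 422 and 448 against 22.5 and 91.6 (1452315_at). No naive value reached the detection level, and no GC value came near it. By the brightest probe set the Kif11 signal of GC cells was at least 19.3-fold higher (limma log2 difference 5.47 ± 0.46 SE, adjusted p = 7.9e-10), and by the others at least 5.74-fold and 4.48-fold. Kif15, a plus-end motor that can keep the spindle bipolar beside Kif11, gave no usable signal: its only probe set read 33.6 and 54.9 in GC cells against 16.2 and 103 in naive cells. It was over the level on GC pLN alone, by a small margin, and was not tested.

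The chromokinesins bind chromosome arms and push them towards the spindle equator or shape the midzone. Kif22, which drives that polar ejection, read 2515 and 3420 in GC cells, against 135 and 255 in naive cells (1451128_s_at), all detected. It was 15.8-fold higher in GC cells as a ratio of geometric means (log2 difference 3.87 ± 0.42, adjusted p = 3.9e-08, limma). Its other probe sets put it 13.9-fold higher (1423813_at) and at least 22.6-fold higher (1437716_x_at). The suffixes of 2 of these mark probes that may match other transcripts, and 1423813_at, without one, read 1461 and 1746 in GC cells against 91.7 and 144 in naive cells. Kif4, which with Prc1 sets the length of the midzone, read 879 and 1146 in GC cells against 60.1 and 19.4 in naive cells. That is at least 10.3-fold higher (log2 difference 4.34 ± 0.48, adjusted p = 6.1e-08, limma).

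Motors of the central spindle and cytokinesis were mostly higher in the same way. Kif20a, which carries the chromosomal passenger complex to the central spindle, read 1549 and 1569 in GC cells against 97.1 and 210 in naive cells. Its values in the GC samples of both tissues were nearly equal, all 4 arrays detected it, and it was 10.9-fold higher (log2 difference 3.31 ± 0.44, adjusted p = 9.0e-07, limma). Kif23, the motor subunit of centralspindlin, read 1968 and 2389 in GC cells against 188 and 63.1 in naive cells by 1455990_at. It was at least 14.0-fold higher (log2 difference 4.12 ± 0.45, adjusted p = 5.5e-08, limma), and at least 4.67-fold by 1453748_a_at. Probe set 1450827_at of Kif23 was dim everywhere, at 35.5 and 59.1 in GC cells and 1.20 and 2.28 in naive cells, and was not tested.

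Kif14, which recruits citron kinase at the end of division, is the weakest call. It read 35.5 and 95.1 in GC cells against 1.30 and 19.9 in naive cells. Both GC signals were over their own levels, on GC pLN by a small margin. Each lay under the level of the naive array of its own tissue, so no fold is given. The fit called it higher (log2 difference 1.67 ± 0.55, adjusted p = 0.014, limma), and the call was lost without the tissue block (adjusted p = 0.065). Leaving out an array drops the block as well. The call was lost without GC PP, GC pLN or naive pLN, with differences of 1.10, 2.23 and 1.11 (adjusted p = 0.38, 0.067 and 0.14), and kept without naive PP, at 2.23 (adjusted p = 0.022).

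Kif20b, a motor needed to complete abscission, was the one gene whose probe sets disagreed. Its brightest, 1439695_a_at, read 1505 and 2402 in GC cells against 1206 and 985 in naive cells. All 4 signals were well over their levels, and the difference of 0.79 ± 0.42 was not called (adjusted p = 0.12, limma). Without naive pLN it was 0.94 and was called (adjusted p = 0.038). The next, 1440924_at, read 853 and 916 in GC cells against 86.4 and 117 in naive cells, so that GC cells stood at least 8.44-fold higher (log2 difference 2.96 ± 0.45, adjusted p = 5.4e-06, limma). The remaining 2 were dim: 173 and 152 in GC cells against 0.600 and 22.7 in naive cells for 1449612_x_at, and 110 and 89.4 against 1.20 and 1.08 for 1419792_at. Both were called higher, but with naive signals raised to the detection level neither call held (adjusted p = 0.11 and 0.96). Where these probe sets lie on the transcript was not examined, and the part of the 3' to 5' ratios in their disagreement was not tested.

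The last pair regulate microtubule ends. Kif2c, a depolymerase that corrects faulty attachments at centromeres, read 1023 and 1548 in GC cells against 93.6 and 7.98 in naive cells by 1437611_x_at, at least 11.5-fold higher (log2 difference 4.69 ± 0.53, adjusted p = 7.8e-08, limma). The suffix of 1437611_x_at marks probes that may match other transcripts. A second probe set, 1449060_at, has no such suffix and read 273 and 391 against 11.0 and 3.23, at least 3.37-fold higher. The other 2 probe sets of Kif2c were near background in GC cells too. One of them, 1432392_at, was called (log2 difference 2.08 ± 0.55, adjusted p = 0.0029, limma), with 47.6 and 127 in GC cells against 4.50 and 11.5 in naive cells. The GC pLN signal was under the naive level of its tissue and the GC PP signal close to it, so no fold is given. Without GC PP the difference was 1.48 and not called (adjusted p = 0.21). Kif18a, which dampens chromosome movements at plus ends, read 617 and 995 in GC cells against 24.6 and 1.01 in naive cells by 1424107_at. It was at least 8.07-fold higher (log2 difference 5.02 ± 0.52, adjusted p = 1.9e-08, limma). Its second probe set, at 12.1 and 19.2 in GC cells and 3.30 and 2.22 in naive cells, was under the level on every array.

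The difference between cell types was then read in each tissue, where each group is a single array and there is no test. In PP, 19 of 19 kinesin probe sets detected on at least 1 array were 2-fold or more higher in GC cells, as were 39.8% of all probe sets. In pLN it was 20 of 22, where 30.2% of all were. Only 4 kinesin probe sets were detected on naive PP and 7 on naive pLN. The other 15 in each tissue entered through the GC array and have ratios over undetected signals, so nothing is read from these counts. For the brightest probe sets of the 10 genes the median log2 difference was 4.29 in PP and 3.44 in pLN. With undetected signals raised to the detection level it was 2.94 in PP and 3.28 in pLN, so the order between tissues turns with the treatment of undetected naive signals. Kif2c differed by 6.12 in PP and 3.26 in pLN, while Kif11 differed by 4.92 in PP and 6.03 in pLN. Their GC signals in PP were 1.51 and 1.15 times those in pLN. The naive signals behind these differences were under the level on both arrays for Kif11 and in PP for Kif2c.

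**Figure D2:**
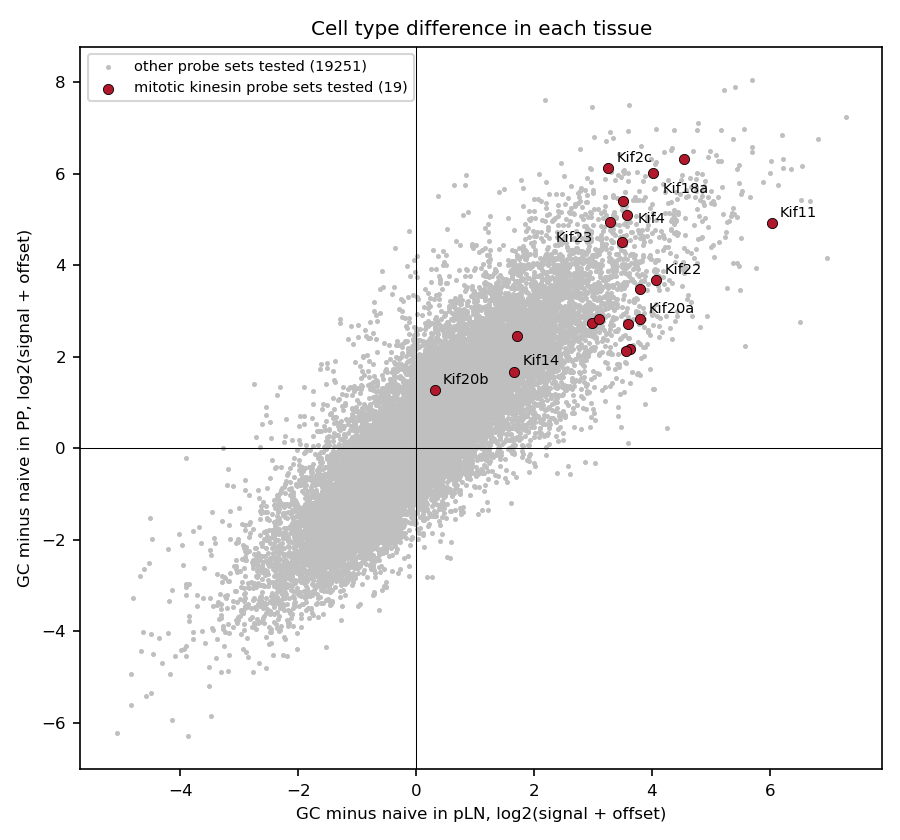
GC minus naive difference in log2(signal + offset) in pLN (x axis) and PP (y axis) for every tested probe set in grey and the 19 tested kinesin probe sets in red, with the brightest of each gene named. All 19 lie in the upper right quadrant, and Kif20b and Kif14 sit closest to the origin among the named points.

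GC cells of PP were then set against those of pLN. Of the 19 probe sets detected in both GC samples, 17 read higher in PP than in pLN, as did 52.4% of all 18844 such probe sets. On the values as deposited it was 11 of 19, where it was 26.5% of all, so the count depends on the scaling of the arrays. The median log2 difference of PP minus pLN was 0.38 for the 19 and 0.02 for all. Of 22 kinesin probe sets 3 were 2-fold or more higher in PP, where 5.35% of all were, and 0 were 2-fold or more lower, where 2.65% of all were. The 3 were 1445525_at for Kif14 (95.1 in PP and 35.5 in pLN), 1432392_at for Kif2c (127 and 47.6) and 1437716_x_at for Kif22 (3180 and 1509), chosen for mention after their values were seen. In pLN those of Kif14 and Kif2c lay near the detection level of 32.0. At the other end, the 2 that read lower in PP were dim probe sets of Kif20b, at 0.814 (1419792_at) and 0.878 (1449612_x_at) of the pLN signal. By the brightest probe sets Kif20a stood at 1.01-fold and Kif11 at 1.15-fold. With 1 array a group these ratios have no error, and tissue and immunisation cannot be told apart.

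Other genes of the same machinery were compared in lists. One of 7 further kinesins with roles in division or the centrosome had 4 higher, 0 lower, 2 not called and 1 not tested, by the brightest probe set of each gene. The share over all 10242 genes was 24.5% higher and 23.5% lower. On each naive array 4 of the 7 were detected, and the others that were tested entered through the GC arrays alone. Cenpe, the centromere motor, read 1732 and 1954 in GC cells against 109 and 264 in naive cells, a 10.9-fold increase (log2 difference 3.32 ± 0.43, adjusted p = 7.2e-07, limma). Kif18b, a plus-end partner of Kif2c, was at least 7.40-fold higher. Kifc1, a minus-end motor that focuses spindle poles, was 4.49-fold higher and its near copy Kifc5b at least 3.24-fold, and signals of such a pair are uncertain, since their probes can share targets. Kif24, a centriolar kinesin, differed by 0.11 ± 0.42. Kif2a, a depolymerase relative of Kif2c, differed by -0.40 ± 0.45 by its brightest probe set, with 809 and 828 in GC cells against 2103 and 553 in naive cells. Neither was called by that probe set.

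Among 23 spindle and cytokinesis partners on the array, 18 were higher, 0 lower and 5 not called, with a median log2 difference of 3.51. Over all 10242 genes 24.5% were higher and 23.5% lower. By the brightest probe sets 13 of the 23 were detected on naive pLN and 10 on naive PP. Those not detected on both entered through the GC arrays alone, so the count is not support in itself. Nusap1, a spindle microtubule binder, was at least 28.6-fold higher, Birc5, of the chromosomal passenger complex that Kif20a carries, at least 34.2-fold, and Ect2, the exchange factor activated by centralspindlin, at least 15.6-fold. Hmmr, a spindle protein, stood at least 20.5-fold higher and Anln, a scaffold of the contractile ring, at least 8.81-fold. Some partners bind the kinesins above directly. Racgap1, the second subunit of centralspindlin with Kif23, differed by 3.37 ± 0.43 (adjusted p = 5.9e-07), and Prc1, which binds Kif4, by 3.49 ± 0.43 (adjusted p = 2.8e-07, both limma). The citron kinase gene Cit, whose product binds Kif14, was undetected on both naive arrays by its brightest probe set and at least 9.53-fold higher (adjusted p = 5.8e-07, limma). By its others it was at least 8.16-fold (1455609_at) and 2.51-fold higher (1427669_a_at), both called. By 1458276_x_at it was detected on naive pLN, at 99.7, and the log2 difference of 0.56 was not called. By contrast Incenp, of the same passenger complex as Birc5, did not pass by its brightest probe set, at 0.91 ± 0.44 (limma adjusted p = 0.086). Nor did Mapre1, a plus-end binding protein (-0.44 ± 0.42), or Rhoa, the GTPase of the contractile ring (-0.63 ± 0.44). These 6 genes were named after their values were seen. Ckap5, a microtubule polymerase (-0.04 ± 0.42), and Numa1, a spindle pole protein (0.32 ± 0.45), were the nearest to 0 and were not called. Each of the 5 genes not called by its brightest probe set had another that was called higher. The log2 differences were 4.71 for Rhoa (1450632_at), 3.09 for Mapre1 (1428820_at), 1.80 for Incenp (1439252_at), 1.56 for Numa1 (1423974_at) and 1.25 for Ckap5 (1437349_at). All but Incenp also had a further tested probe set that was not called.

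Factors known to act on such promoters formed the next list. Of 13, 9 were higher, 0 lower and 4 not called, where 24.5% of all genes were higher and 23.5% lower. By the brightest probe sets 11 of the 13 were detected on naive pLN and 9 on naive PP. Those not detected on both entered through the GC arrays alone, so this count is not support in itself. Mybl2, which encodes B-MYB, read 615 and 1355 in GC cells against 14.3 and 23.8 in naive cells, at least 9.41-fold higher, and Lin9, a MuvB subunit, was at least 8.30-fold higher. Rbl1, a pocket protein, stood 9.62-fold higher, and the NF-Y subunit genes Nfya and Nfyb 6.98-fold and 4.60-fold. The third NF-Y subunit gene, Nfyc, differed by -0.17 ± 0.42 and the MuvB subunit gene Lin37 by 0.04 ± 0.42, and neither was called. Named after their values were seen, Lin54 (0.29 ± 0.42) and Rbbp4 (0.98 ± 0.45) were not called by the brightest probe set either. Lin54 was called higher by 1435181_at (2.28). Rbbp4 was called higher by 1456260_at (3.07) among others, but not by 1454875_a_at (0.86). Foxm1, also named afterwards, was 4.07-fold higher by its brightest probe set.

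Kinesins outside mitosis formed the last list. Of 28 transport and other kinesin genes on the array, light chains included, 17 were tested, and 4 were higher, 2 lower and 11 not called, with a median log2 difference of -0.07. As shares of the 17 these lie at or under the 24.5% higher and 23.5% lower of all genes, so they are no result about the list, and after quantile normalization or cyclic loess they were 2 higher and 4 lower. Kif3b, a motor of the heterotrimeric transport kinesin, was 5.00-fold higher by its brightest probe set (adjusted p = 0.00014, limma). By its others the log2 difference was 1.20 (1450073_at, called), 0.44 (1420986_s_at, not called) and 0.21 (1420987_at, not called). The adaptor of that kinesin, Kifap3, was at least 4.39-fold higher (adjusted p = 0.00053, limma). Klc3, a light chain, was at least 2.55-fold higher and Kif1b, an organelle motor, at least 1.25-fold. Kifc2 read 64.2 and 106 in GC cells against 437 and 339 in naive cells, lower by -2.04 ± 0.47 on the log2 scale (adjusted p = 0.00094, limma), and the light chain gene Klc4 by -1.90 ± 0.43 (adjusted p = 0.00073, limma). Kif3c and Kif9 differed by -0.07 each and were not called. Whether the lists differ from each other was not tested.

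**Figure D3:**
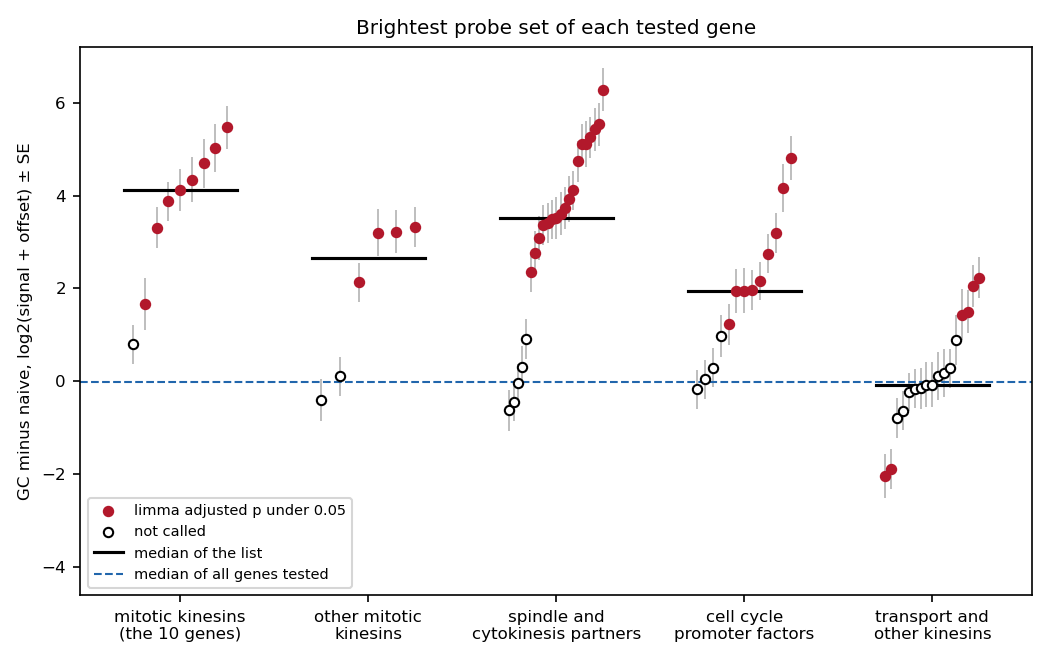
GC minus naive difference in log2(signal + offset) ± SE for the brightest probe set of each tested gene in 5 lists, filled where limma's adjusted p was under 0.05, with the list median as a bar and the median of all tested genes, -0.01, as a dashed line. The medians are 4.12 for the mitotic kinesins, 2.67 for the other mitotic kinesins, 3.51 for the partners, 1.95 for the promoter factors and -0.07 for the transport and other kinesins.

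Profiles closest to the mean of the 10 kinesins were looked for among 10140 other genes, by the Euclidean distance of centred log2 signals over the 4 arrays. The nearest 5 were Brip1 (distance 0.11), Mettl9 (0.17), Prr11 (0.18), Mbtps2 (0.20) and BC052688 (0.23). Brip1, a helicase gene of DNA repair, read 487 and 621 in GC cells against 42.1 and 40.3 in naive cells, both under the detection level. The mean profile took in the brightest probe set of each of the 10 kinesins, Kif15 without usable signal and the dim Kif14 included. With 4 arrays and 1 main contrast, many genes can lie this close.

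The kinesin differences were recomputed with other processing. Of the 18 called probe sets, 14 kept the call and sign under every alternative in which they were tested. The other 4 were 1445525_at for Kif14, 1432392_at for Kif2c, and 1419792_at and 1449612_x_at for Kif20b. With signals under the detection level raised to it, the difference was -0.60 for Kif14 and -0.25 for that probe set of Kif2c. Scaling the arrays to the spike-ins put the median of the tested kinesin probe sets at 4.78, and that of all probe sets at 1.68.

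**Figure D4:**
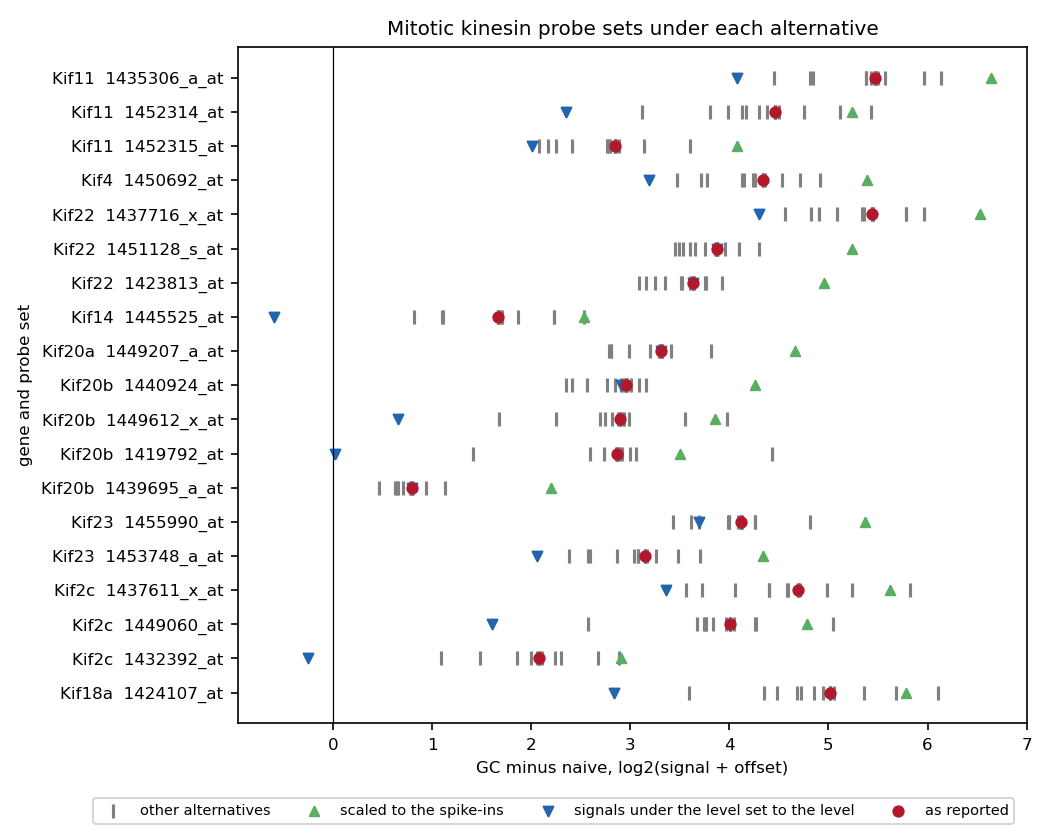
GC minus naive difference in log2(signal + offset) of the 19 tested kinesin probe sets as reported (red), with the spike-in scaling (green), with undetected signals raised to the level (blue) and under the other alternatives (grey bars). Kif14 and the probe set 1432392_at of Kif2c are the only ones with a value below 0, and every probe set lies higher with the spike-in scaling than as reported.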

How the data were processed

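RNA from 4 sorted B cell populations was hybridised to 1 single-colour Affymetrix array each, and GCOS gave the signals, per the submitters' processing notes; its version, algorithm and target remain not given in the sources used here. Intensities, as deposited, are on a linear scale with a median of 1 on every array. Their 2% trimmed means differed by over 10%, so each array was scaled to 500. Log2 was taken after adding the median signal of 77 probe sets for genes of other tissues, 14.5, which understates the change of dim genes. Of 45101 probe sets, 34958 had 1 gene symbol, 932 several and 9211 were not listed; Entrez identifiers of 34754 matched RefSeq, with 0 symbols changed. limma 3.58.1 (R 4.3.3) tested GC against naive cells with a tissue block, a variance trend (prior degrees of freedom 27.3) and Benjamini-Hochberg adjustment over 19270 probe sets. The script was tested on simulated data. The p-values reflect only how far the tissues disagree. Named list genes were the 5 highest and 5 lowest called and the 2 nearest 0. The members, lists and tests, and the absence of Gh and Prm1 from the background list, were chosen with earlier results of these data known. Alternatives covered scaling, offset, filter, background list, block, trend, probe set choice and each array left out. The Kif20a promoter was not analysed here. 0 columns were left unused.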

Additional observations from a re-analysis of the deposited data

Results flagged for a closer look

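No kinesin of the 10 had tested probe sets whose GC minus naive difference pointed in opposite directions in the tissues. Among the other genes named by rule and the B, GC and plasma cell markers, by brightest probe set, 10 did so, with 1 array a group, and the difference between tissues was not tested for any of them. The log2 difference of Sdc1, a plasma cell surface marker, was 2.04 in PP and -0.84 in pLN. That of Kif2a was 0.57 in PP and -1.36 in pLN, that of Numa1 1.16 in PP and -0.53 in pLN, and that of Lin37 0.58 in PP and -0.49 in pLN. Kif24 differed by -0.29 in PP and 0.50 in pLN, and Kif9 by -0.41 in PP and 0.27 in pLN. Ckap5 (-0.13 in PP and 0.040 in pLN) and Kif3c (0.0080 in PP and -0.15 in pLN) were close to 0 in both. The B cell marker Ptprc differed by -0.42 in PP and 0.017 in pLN, and Irf4, a factor of plasma cell formation, by 0.038 in PP and -0.36 in pLN.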

How the results depend on the processing

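The median log2 difference of the tested kinesin probe sets, 3.63, was 3.16 after quantile normalization, 2.97 after cyclic loess, 2.99 with the larger offset, 3.15 with no filter, 2.83 with signals under the level set to it, and 4.78 with the spike-in scaling. The 10-gene median in PP, 4.29, was 3.64, 3.72, 2.94 and 5.96 after cyclic loess, the larger offset, the level floor and the spike-in scaling, and that in pLN, 3.44, was 4.27 with the last. Over all probe sets, 4743 were higher and 4229 lower after quantile normalization, and 7662 and 110 with the spike-in scaling, against 6074 and 3323 as reported. Kif14 and 1432392_at of Kif2c reversed only with that floor, to -0.60 and -0.25. Requiring detection on all 4 arrays left fewer probe sets to test: 3 kinesin probe sets and 2 of the 10 genes were called higher, with 2 of the other mitotic kinesins, 5 partners, 5 promoter factors, 1 other kinesin and 3033 probe sets in all. Among transport and other kinesins, 2 were higher and 4 lower after quantile normalization and after cyclic loess, 1 was lower with the level at the 98th percentile and 0 with the spike-in scaling; the cause was not tested. Leaving out 1 array used no tissue block, since 3 arrays leave no residual degree of freedom with it, and assumes that the lone sample varies like the others. It gave 16 to 18 kinesin probe sets and 7 to 8 genes called higher, medians of 3.17 to 3.76, 1990 to 7730 probe sets higher and 665 to 4788 lower in all (1990 and 665 without GC PP, 2374 and 774 without GC pLN), 0 to 1 of the other mitotic kinesins and 0 to 1 partner lower, 5 to 11 promoter factors higher, and 1 to 4 transport and other kinesins higher and 0 to 4 lower. The reported fit pairs the arrays by tissue; without that block 17 kinesin probe sets and 7 genes were called higher. The kinesin probe sets higher in GC PP than in GC pLN numbered 11 of 19 on the values as deposited, against 17 as reported.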

Other observations

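Disagreement between probe sets of 1 gene, as in Kif20b, was seen in other genes that bear on these cells, named here after their values were seen. Ptprc, the gene of the sorted B220 antigen, read 3356 and 2871 in GC cells against 3317 and 3835 in naive cells by 1440165_at, but 6997 and 7188 against 2625 and 562 by 1422124_a_at. Bcl6, the transcription factor of the GC programme, differed by 0.79 by 1421818_at and by 2.82 by 1450381_a_at. Kif2a differed by -0.40 by its brightest probe set, and by 1.72 (1450053_at) and 1.43 (1452499_a_at) by 2 others that were called. In each of these genes the brightest probe set gave the lowest difference of those tested. The other mitotic kinesins with several tested probe sets did not all do so: the brightest of Kif11 gave the highest of 3 differences, at 5.47, and that of Kif22 gave 3.87, between 3.63 and 5.43.

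The 5 plasma cell markers were read in the same GC samples by brightest probe set. Prdm1 read 1007 in PP and 118 in pLN, and Sdc1 read 2024 in PP and 499 in pLN. The other 3 stood closer, with PP over pLN ratios of 1.15 for Jchain, 1.26 for Xbp1 and 1.49 for Irf4. The brightest probe sets of the 10 kinesins had a median log2 difference of 0.48, PP minus pLN, between the same samples, and of 0.25 on the values as deposited. None of this was tested.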
